A study of Mus musculus with 5 samples.

Results

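VEGF and angiopoietin signaling was described here by 10 genes, selected by symbol among the 32286 genes counted in single-cell RNA-seq of mouse synovial sarcoma (SyS). They were the ligand genes *Vegfa*, *Vegfb*, *Vegfc* and *Pgf*, the receptor genes *Kdr*, *Flt1* and *Nrp1*, the angiopoietin genes *Angpt1* and *Angpt2*, and *Tek*, which encodes the angiopoietin receptor TIE2. All 10 were measured in all 5 tumors. The questions were which cell classes of the tumors held the transcripts of ligands and receptors, and whether PD+MP, which had few endothelial cells, differed from the other tumors.

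All tumors came from *hSS2* mice, which carry human *SS18::SSX2* in *Rosa26* behind a stop cassette, and the fusion was switched on by injecting TATCre protein into a limb. Any limb cell that takes up the protein can therefore recombine, and untransformed host cells share the tumor with the SyS cells. The labels give 2 biphasic tumors (BP, replicates 1 and 2) and 1 tumor each of the monophasic (MP), mixed (MP+BP) and poorly differentiated with monophasic (PD+MP) histologies, with no age or strain. Whether both BP tumors grew in 1 animal is not stated, and MP, MP+BP and PD+MP have no replicate, so a value of PD+MP stands for 1 tumor. No untreated tissue was used.

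VEGF-A is secreted by many cell types when oxygen is low and acts through VEGFR2, the product of *Kdr*, which carries the main growth signal in endothelial cells. VEGFR1, the product of *Flt1*, binds VEGF-A, VEGF-B and placental growth factor (*Pgf*) and also acts as a decoy, and neuropilin 1 (*Nrp1*) is a coreceptor found outside vessels too. Angiopoietin 1 from mural and mesenchymal cells activates TIE2 and stabilizes vessels, whereas angiopoietin 2, made largely by endothelial cells during remodeling, can oppose it.

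The matrices held between 89996321 and 118649103 UMIs (unique molecular identifiers, tags that let a captured RNA be counted without its PCR copies) per tumor. After filtering, 39559 of 51670 cells remained, with a median of 6340 to 8528 UMIs per cell in each tumor. Only 231 of 51437 barcodes occurred in more than 1 matrix. Clusters were named from marker genes, which did not include any of the 10 genes. SyS-like cells numbered 28032, macrophage-like 3753, endothelial-like 2419 and pericyte-like 1252. The endothelial markers summed to 7386 to 8330 counts per 1000000 UMIs (CPM) in endothelial-like cells and to at most 602 in the other 3 classes, and the SyS markers to 3147 to 4670 in SyS-like cells and at most 399 elsewhere. The names came from these markers, so the sums describe the classes and do not test the names. Another 2841 cells stayed unnamed, of which 2233 formed a cluster led by *Col1a1* and *Sst*. The Y-linked gene *Uty* helped to lead 3 of the SyS-like clusters that drew most UMIs from PD+MP, so the label and the sex of this mouse cannot be told apart. Endothelial-like cells made up 80 of 7884 kept cells in PD+MP (1.01%, 95% Wilson interval 0.816% to 1.26%) and between 5.89% and 9.72% elsewhere. Levels below are CPM of the summed UMIs of a class in 1 tumor, listed for BP 1, BP 2, MP, MP+BP and PD+MP in that order, and they are compared within a gene only, because 3′ counting does not rank genes against each other. Intervals are 95% and cover counting error only. In class contrasts p-values set the difference between 2 classes against 1 spread per gene. That spread is what remains among the sums of all 4 classes in these 5 tumors once the tumor is a block. For PD+MP they rest on the spread of the other 4 tumors.

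**Figure D1:**
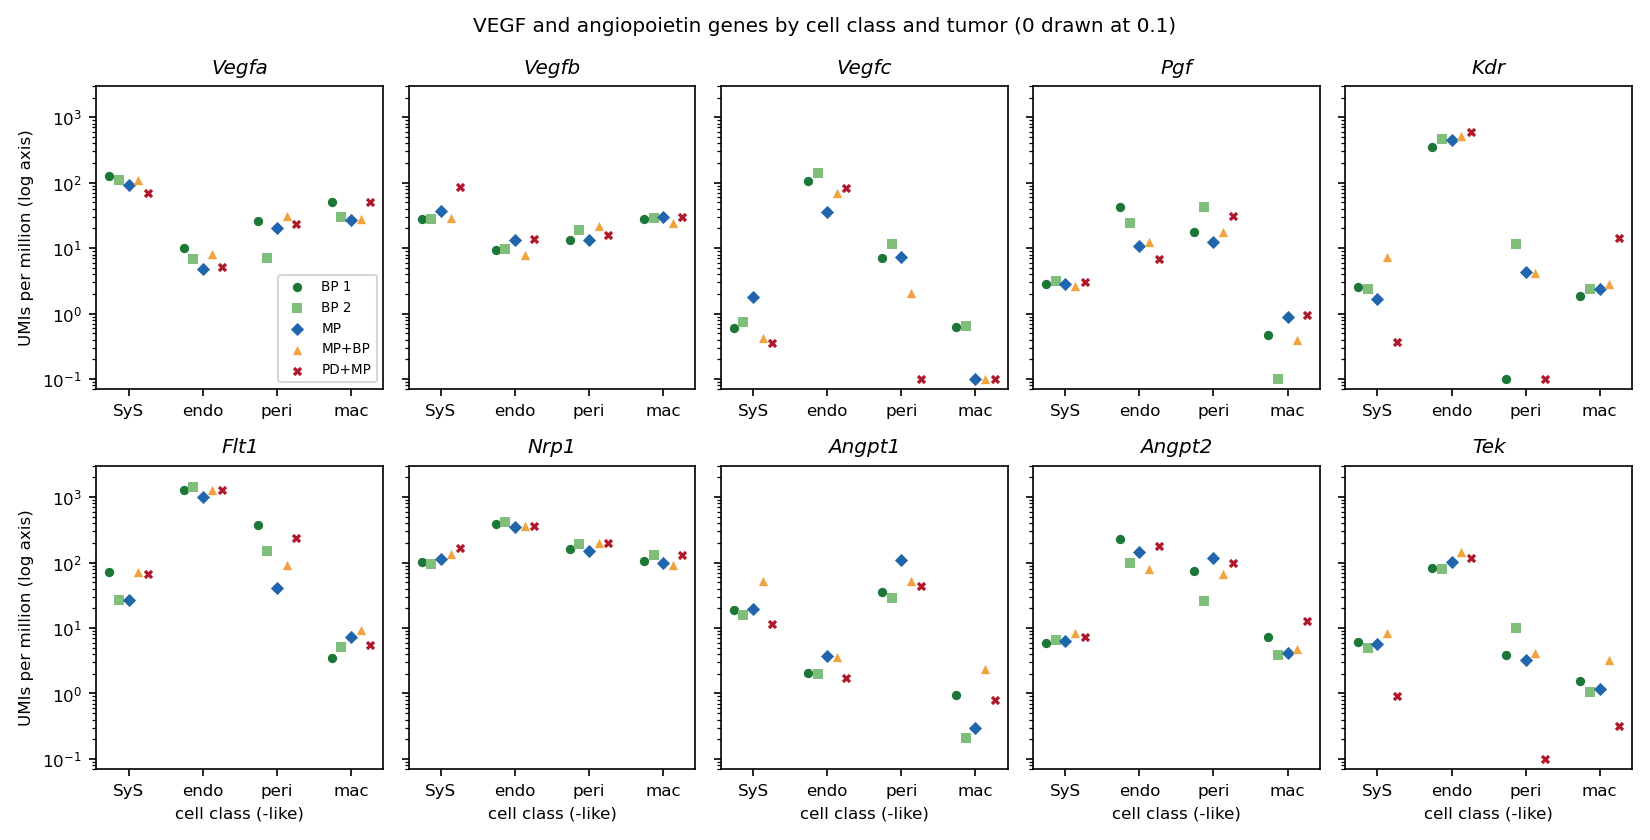
Level of each gene (CPM, log axis, 0 drawn at 0.1) in SyS-like, endothelial-like, pericyte-like and macrophage-like cells, with 1 point per tumor. *Kdr*, *Flt1*, *Tek*, *Vegfc* and *Angpt2* sit highest in endothelial-like cells and *Vegfa* sits highest in SyS-like cells of all 5 tumors.

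Among the ligands, *Vegfa* (chr17:46016993-46032369, minus strand, GRCm38) was, of the 4 classes, highest in SyS-like cells. Its level there was 127, 111, 93.2, 109 and 69.3 CPM, a mean of 102 ± 21.8 (SD, n = 5). In endothelial-like cells it was 10.2, 6.77, 4.79, 8.17 and 5.18 CPM, so the classes did not overlap in any tumor. The log2 difference between endothelial-like and SyS-like cells was -3.54 ± 0.27 (SE; edgeR adjusted p = 3.3e-09). Pericyte-like cells held 21.5 ± 8.9 CPM and macrophage-like cells 37.3 ± 12.4 CPM (SD, n = 5). SyS-like cells were above pericyte-like (log2 difference 1.95 ± 0.26, adjusted p = 8.57e-06) and macrophage-like cells (0.83 ± 0.22, adjusted p = 0.0031). Pericyte-like cells stood between, with endothelial-like cells lower by -1.59 ± 0.30 on the log2 scale (adjusted p = 0.00039).

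A *Vegfa* UMI was found in 44.3% to 65.5% of SyS-like cells per tumor and in 3.75% to 5.20% of endothelial-like cells, at median depths of 7714 to 10923 and 3988 to 5136 UMIs per cell. SyS-like cells held between 85.2% and 95.9% of all *Vegfa* UMIs of a tumor. Neutrophil-like cells, which were few, had levels of 70.9 to 154 CPM, from 14 to 58 UMIs per tumor. Their mean of 123 CPM was above the 102 CPM of SyS-like cells. Fibroblast-like and unnamed cells had means of 95.1 (0 to 174) and 93.5 (51.1 to 139) CPM. Across the 17 SyS-like clusters *Vegfa* ranged from 57.6 CPM in cluster 6, with most UMIs from PD+MP, to 153 CPM in cluster 10, whose cells had a median of only 2378 UMIs. The summed level of 12 hypoxia-responsive genes did not rise with it (Pearson r = -0.41 over 17 clusters, which share tumors and differ in depth), a description without a test.

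*Vegfb* (chr19:6982473-6987651, minus strand), whose product binds VEGFR1, was also lowest, of the 4 classes, in endothelial-like cells, with 9.41, 9.88, 13.1, 7.87 and 13.8 CPM. Pericyte-like cells were higher in each tumor, at 13.2 to 21.6 CPM, but these ranges overlapped and the difference was not called. SyS-like cells had 27.7, 27.8, 37.4, 28.8 and 85.9 CPM, in which PD+MP stood apart from the other 4 tumors. Endothelial-like cells were lower than SyS-like (log2 difference -1.51 ± 0.23, adjusted p = 1.91e-05) and macrophage-like cells (-1.71 ± 0.23, adjusted p = 5.93e-06). Macrophage-like cells held 28.0 ± 2.24 CPM (SD, n = 5) and their difference from SyS-like cells was not called (adjusted p = 0.40). Against pericyte-like cells the log2 difference of SyS-like cells was 0.88 ± 0.25 (adjusted p = 0.0082).

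*Vegfc* (chr8:54077606-54187096, plus strand), the ligand best known for lymphatic growth, showed the opposite distribution. Endothelial-like cells had 106, 138, 36.2, 69.3 and 82.9 CPM, and SyS-like cells had 0.60, 0.76, 1.78, 0.42 and 0.35 CPM. Every endothelial-like value lay above every value of the other 3 classes. The log2 difference was 7.15 ± 0.47 against SyS-like cells (adjusted p = 5.37e-10) and 3.92 ± 0.51 against pericyte-like cells (adjusted p = 7.85e-06). Macrophage-like sums held only 7 *Vegfc* UMIs in all, and none in MP, MP+BP and PD+MP. Mast-like cells of MP, 111 cells, reached 185 CPM from 64 UMIs.

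*Pgf* (chr12:85166635-85177790, minus strand) had its higher levels, among the 4 classes, in the cells of the vessel wall. Endothelial-like cells had 43.0, 24.3, 10.6, 12.4 and 6.90 CPM, pericyte-like cells had 17.9, 43.0, 12.4, 17.5 and 31.4 CPM, and the difference between them was not called (log2 difference -0.20 ± 0.40, adjusted p = 0.74). SyS-like cells had a narrow range of 2.68 to 3.12 CPM, but being the most numerous they held 41.5% to 79.2% of the *Pgf* UMIs of a tumor, against 1.46% to 47.1% in endothelial-like cells. Dendritic-like cells of MP, 62 cells, reached 47.8 CPM from 21 UMIs. The log2 difference of endothelial-like from SyS-like cells was 2.97 ± 0.38 (adjusted p = 2.76e-06).

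Of the receptors, *Kdr* (chr5:75932827-75978458, minus strand) was the most restricted. Endothelial-like cells had 357, 473, 451, 510 and 594 CPM, whereas SyS-like cells had 2.56, 2.36, 1.66, 7.46 and 0.37 CPM. The log2 difference was 7.78 ± 0.67 (adjusted p = 1.8e-08). Endothelial-like cells held 72.4% to 94.5% of the *Kdr* UMIs of each tumor. Free RNA from broken cells carries the genes of its source in 1 ratio, so *Cdh5* (VE-cadherin) served as the endothelial reference. In pericyte-like cells 24 *Kdr* and 88 *Cdh5* UMIs gave a pooled ratio of 0.27 beside the 0.24 of endothelial-like cells, with 0 *Kdr* UMIs in BP 1 and PD+MP, and the part of free RNA or mixed cells in this level was not tested. In SyS-like cells the ratio was 1.31 over all tumors and 3.63 in MP+BP (476 *Kdr* UMIs), above that of endothelial-like cells.

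*Flt1* (chr5:147561604-147726011, minus strand) was highest in endothelial-like cells, with 1265, 1432, 1003, 1275 and 1270 CPM. It was also present in SyS-like cells at 70.8, 26.8, 26.5, 71.1 and 67.7 CPM, where the *Flt1* to *Cdh5* ratio was 23.9 against 0.66 in endothelial-like cells. A *Flt1* UMI was found in 19.9% to 40.1% of SyS-like cells and a *Cdh5* UMI in 0.72% to 4.14%. The log2 difference of endothelial-like from SyS-like cells was 4.99 ± 0.42 (adjusted p = 1.38e-08). Pericyte-like cells varied most, at 368, 148, 40.9, 91.6 and 235 CPM, and exceeded SyS-like cells in all 5 tumors (log2 difference of SyS-like cells -1.93 ± 0.39, adjusted p = 5.02e-04). Macrophage-like cells had 3.45 to 9.20 CPM, with a ratio of 0.85. The *Col1a1*-led unnamed cluster held 224 CPM.

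Because SyS-like cells far outnumbered the others, they held 25.4% to 80.9% of the *Flt1* UMIs. The share was highest in PD+MP, where endothelial-like cells held 12.4%.

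*Nrp1* (chr8:128358604-128503363, plus strand, with *Mir1903* inside it) was present in all 4 classes. Levels were 374 ± 25.5 CPM in endothelial-like, 179 ± 22.9 in pericyte-like, 123 ± 29.0 in SyS-like and 111 ± 17.7 in macrophage-like cells (SD, n = 5). Endothelial-like cells exceeded the other classes in all 5 tumors, by log2 differences of 1.91 ± 0.14, 1.08 ± 0.14 and 1.41 ± 0.14 against SyS-like, pericyte-like and macrophage-like cells (adjusted p = 2.45e-09, 8.23e-06 and 1.02e-07). The order of SyS-like and macrophage-like cells depended on the scaling. SyS-like cells were called lower (-0.50 ± 0.14, adjusted p = 0.0035) although their CPM was higher in 3 of 5 tumors, and with library totals alone the difference was 0.14 (adjusted p = 0.35).

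*Tek* (chr4:94739289-94874976, plus strand) levels were 81.2, 79.6, 103, 147 and 116 CPM in endothelial-like cells. SyS-like cells had 6.21, 4.99, 5.77, 8.46 and 0.92 CPM, all below the endothelial-like values. The log2 difference was 4.78 ± 0.36 (adjusted p = 3.82e-09). Outside these classes *Tek* stood at 69.3 CPM in the 122 fibroblast-like cells of PD+MP, from 76 UMIs, where no *Cdh5* UMI was found.

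*Angpt1* (chr15:42424723-42676977, minus strand, with *Gm17473* on the other strand) was, among the 4 classes, lowest in macrophage-like and endothelial-like cells and highest in pericyte-like cells. Pericyte-like cells had 35.0, 28.7, 110, 52.5 and 43.1 CPM, SyS-like cells 18.6, 15.6, 19.5, 51.7 and 11.6 CPM, and endothelial-like cells 2.05, 1.98, 3.73, 3.63 and 1.73 CPM. Endothelial-like cells were lower than pericyte-like (log2 difference -4.35 ± 0.39, adjusted p = 7.77e-08) and SyS-like cells (-2.80 ± 0.36, adjusted p = 3.05e-06). MP+BP had the highest SyS-like level. Outside the 4 classes, *Angpt1* was 40.1 to 134 CPM in the unnamed cells and 75.6 CPM in fibroblast-like cells of PD+MP, from 83 UMIs. SyS-like cells still held 68.9% to 83.1% of the *Angpt1* UMIs of each tumor, since pericyte-like cells were few.

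*Angpt2* (chr8:18690263-18741562, minus strand, overlapping *Mcph1* on the other strand) had its higher levels, among the 4 classes, in both vessel wall classes. Endothelial-like cells had 231, 97.7, 146, 78.4 and 180 CPM and pericyte-like cells had 74.0, 25.8, 119, 67.9 and 98.0 CPM, lower in each tumor although the ranges overlapped. This difference was small (log2 0.89 ± 0.30, adjusted p = 0.025) and its call was lost without BP 1 (0.73, adjusted p = 0.12), without BP 2 (0.75, adjusted p = 0.079) or without the tumor as a block (0.89, adjusted p = 0.05003). SyS-like cells had 5.85 to 8.51 CPM, which the log2 difference placed 4.58 ± 0.32 below endothelial-like cells (adjusted p = 1.23e-09). Being the most numerous, they still held 22.3% to 69.3% of the *Angpt2* UMIs of a tumor, against 13.8% to 66.2% in endothelial-like cells. Their share was the larger one in BP 2, MP+BP and PD+MP.

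In all, 7 of the 10 genes were called higher and 3 lower in endothelial-like than in SyS-like cells, where 23.7% of 12199 genes outside the clustering features were called higher and 33.3% lower. Against pericyte-like cells 6 were higher and 2 lower, with backgrounds of 17.4% and 17.3%. Against macrophage-like cells 7 were higher and 2 lower, with backgrounds of 26.7% and 26.7%. The gene not called there was *Angpt1* (log2 difference 1.18 ± 0.52, adjusted p = 0.059), whose value turned to -0.30 (adjusted p = 0.77) without 140 endothelial-like cells of high UMI count that also carried pericyte or SyS genes. SyS-like cells had 2 of the genes higher and 6 lower than pericyte-like cells (backgrounds 26.1% and 16.7%), and 5 higher and 1 lower than macrophage-like cells (39.2% and 27.8%). The 5 were *Vegfa*, *Pgf*, *Flt1*, *Angpt1* and *Tek*. *Tek* (1.23 ± 0.47, adjusted p = 0.027) was lost in 4 of 15 alternatives and *Pgf* (1.84 ± 0.56, adjusted p = 0.0078) in 2 of 15.

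**Figure D2:**
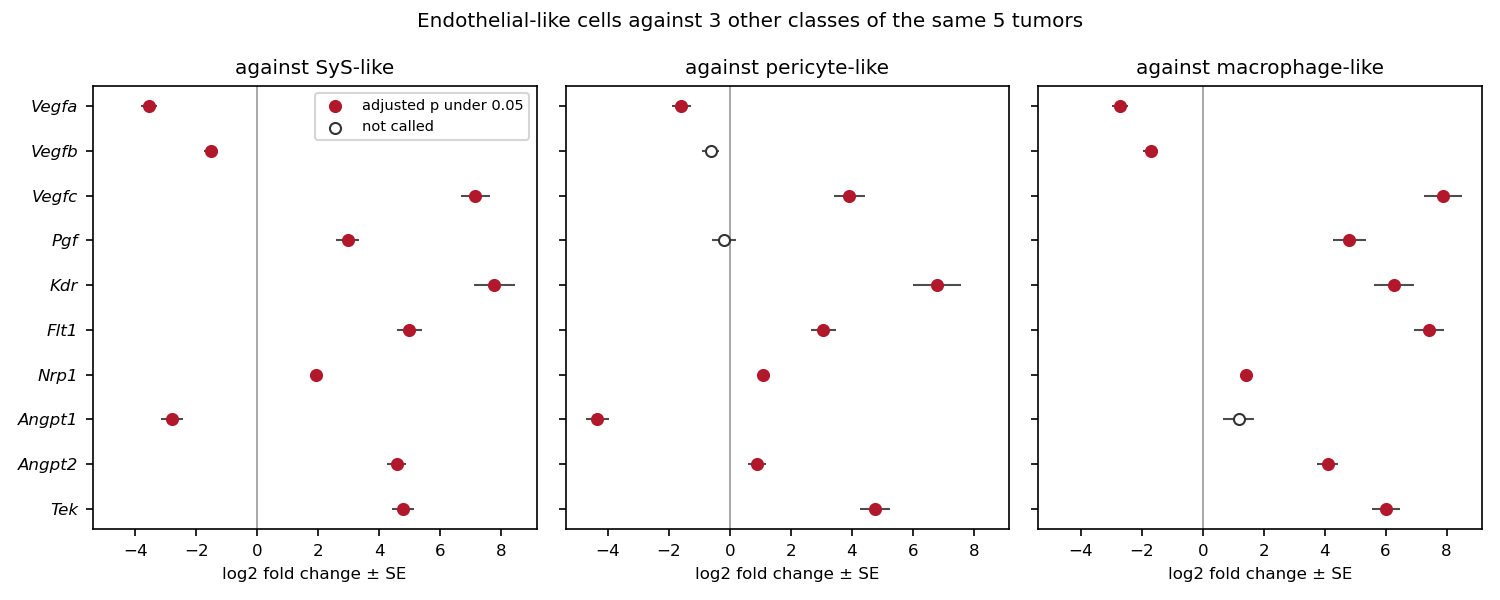
Log2 fold change ± SE of each gene in endothelial-like cells against SyS-like, pericyte-like and macrophage-like cells of the same 5 tumors, filled where the adjusted p was under 0.05. *Vegfa* lies left of 0 in all 3 panels, and *Vegfc*, *Kdr*, *Flt1*, *Nrp1*, *Angpt2* and *Tek* lie right of 0.

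The promoters of the endothelial receptor genes are shown because *Kdr*, *Flt1* and *Tek* were high in the same cells. The 250 bases before the RefSeq start (GRCm38.p6) lie at chr5:75978456-75978705 (minus strand), chr5:147726012-147726261 (minus strand) and chr4:94739039-94739288 (plus strand), 5′ to 3′, with capitals marking CCGGAA or AGGAAG on either strand, 2 core forms that ETS family factors can bind and that do not overlap each other here.

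*Kdr*: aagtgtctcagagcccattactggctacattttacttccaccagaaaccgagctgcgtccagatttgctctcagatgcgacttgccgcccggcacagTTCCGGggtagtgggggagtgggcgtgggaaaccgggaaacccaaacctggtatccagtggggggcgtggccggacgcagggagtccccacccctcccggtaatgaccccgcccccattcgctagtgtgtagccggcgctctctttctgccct
*Flt1*: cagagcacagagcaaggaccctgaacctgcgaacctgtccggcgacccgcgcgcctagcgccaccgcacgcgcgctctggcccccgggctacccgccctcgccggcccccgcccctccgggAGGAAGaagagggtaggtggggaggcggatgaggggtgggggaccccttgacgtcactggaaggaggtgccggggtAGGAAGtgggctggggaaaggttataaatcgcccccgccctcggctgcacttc
*Tek*: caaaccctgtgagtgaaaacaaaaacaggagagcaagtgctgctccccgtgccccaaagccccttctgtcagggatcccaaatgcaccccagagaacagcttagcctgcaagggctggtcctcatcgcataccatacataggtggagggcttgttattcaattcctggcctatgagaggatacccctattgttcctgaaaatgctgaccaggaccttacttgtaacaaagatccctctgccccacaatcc

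*Kdr* held CCGGAA 1 time, on the opposite strand, *Flt1* held AGGAAG 2 times, and neither form occurred in this window of *Tek*. Of 8 genes with a RefSeq window, 3 held either form (*Nrp1* was the other), and 41.5% of all 27025 genes with a window did, so these letters do not set the genes apart. The core ACGTG, which hypoxia-inducible factors bind, occurred in 1 of the 10 windows, a second start of *Vegfa*, and in 16.6% of all windows. No window was listed for *Angpt1* and *Angpt2*.

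Other genes of the pathway were counted by list. In endothelial-like against SyS-like cells, 23.7% of the genes outside the clustering features were called higher and 33.3% lower. Of 4 tested other family genes, all 4 were higher in endothelial-like than in SyS-like cells, with a median log2 difference of 7.13 against -0.14 over all genes. The 4 included *Ptprb* (9.68 ± 0.35), which encodes the phosphatase VE-PTP, and *Tie1* (9.28 ± 0.36), the partner of TIE2. Of 11 signaling partners tested, 7 were higher and 2 lower, among them *Robo4* (8.96 ± 0.34), *Nos3* (6.73 ± 0.34), the endothelial nitric oxide synthase, and *Plxnd1* (5.50 ± 0.22). Of 6 regulators of the hypoxia response, 3 were higher and 1 lower, with *Epas1*, which encodes HIF-2α, at 5.81 ± 0.25. Of 12 hypoxia-responsive genes, 7 were higher and 2 lower, with a median of 0.38. These 12 genes summed to 595 to 815 CPM in endothelial-like and 438 to 643 CPM in SyS-like cells.

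Against pericyte-like cells the same lists, in the same order, had 4 of 4, 6 of 11, 2 of 6 and 3 of 12 genes higher and 0, 0, 1 and 3 lower, where 17.4% and 17.3% of the genes outside the clustering features were called. The largest differences were those of *Robo4* (7.06), *Ptprb* (6.77), *Tie1* (6.31), *Nos3* (4.998), *Flt4* (4.56), which encodes the VEGF-C receptor, and *Plxnd1* (3.32 on the log2 scale). Against macrophage-like cells 3 of 4, 7 of 11, 3 of 6 and 6 of 12 were higher and 1, 3, 3 and 6 lower, with 26.7% of those genes called in each direction. The largest differences were those of *Ptprb* (8.45), *Robo4* (7.41), *Flt4* (6.82), *Tie1* (6.28) and *Nos3* (6.07), while *Dok2*, an adaptor of blood cells, was lower (-6.41). Between SyS-like and pericyte-like cells the lists had 0, 3, 1 and 1 genes higher and 2, 3, 3 and 7 lower, with backgrounds of 26.1% and 16.7%. SyS-like cells were lower than pericyte-like cells in *Epas1* (-5.70), *Tie1* (-2.97), *Ptprb* (-2.91), *Ndrg1* (-2.21) and *Hk2* (-2.20) and higher in *Rcan1* (2.22). Against macrophage-like cells they had 1, 4, 0 and 2 genes higher and 3, 6, 3 and 7 lower, with backgrounds of 39.2% and 27.8%. They were lower than macrophage-like cells in *Dok2* (-4.68), *Plxnd1* (-3.70), *Hk2* (-3.52), *Tie1* (-3.00) and *Ndrg1* (-2.38) and higher in *Unc5b* (2.59), which encodes a netrin receptor.

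Likeness of pattern was described over the 20 sums of 5 tumors and 4 classes, among 9796 genes with a mean of at least 10 CPM. Nearest to *Kdr* were *Icam2* (r = 0.98), *She* (0.97) and *Abcb1a* (0.96), all of which had served as clustering features. Nearest to *Vegfa* were *Ccdc107* (0.94), *Fundc1* (0.93) and *Kif1a* (0.91), to *Angpt1* *Map1lc3a* (0.96), *Rcn3* (0.96) and *Sema5b* (0.95), and to *Angpt2* *Sh2d3c* (0.97), *Actn4* (0.96) and *Iffo2* (0.96). The 20 sums share 5 libraries and 4 cell classes.

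Within the endothelial-like cells, sub-clusters were formed without the 10 genes. Of 7 sub-clusters, number 3 (435 cells) was arterial-like by its markers and number 4 (170 cells) was led by cycling genes. None was named from the markers of tip cells, the leading cells of a sprout, so the planned comparison of tip-like cells was not run. The summed tip markers ranged from 1638 CPM in sub-cluster 4 to 2633 CPM in sub-cluster 3, so all sub-clusters carried them. The 5 largest held at least 9 cells of each tumor. *Vegfc* was highest in the arterial-like sub-cluster in 5 of 5 tumors, at 186, 259, 418, 599 and 276 CPM, against 102, 191, 52.9, 35.6 and 215 CPM in sub-cluster 2 and 48.9, 73.6, 25.4, 35.1 and 41.2 CPM in sub-cluster 1. In PD+MP the values of sub-clusters 3 and 2 rest on 22 and 11 UMIs, with overlapping intervals (173 to 418 and 107 to 385 CPM). *Pgf* was highest in sub-cluster 1, led by *Tagln*, *Aplnr* and *Adm*, in 4 of 5 tumors, with 203 CPM in BP 1 and 17.7 to 37.5 CPM in the others. *Nrp1* in sub-clusters 2 and 3 exceeded that in sub-clusters 0, 1 and 4 in 5 of 5 tumors, and *Flt1* was highest in sub-cluster 3 in 3 tumors (1379 to 2404 CPM over all 5) and in sub-cluster 0 in the other 2 (1211 to 1853 CPM). *Angpt2* had no common order, with 23.3 to 290 CPM in sub-cluster 3. Sub-cluster 2 had a median of 2234 UMIs per cell and was led by *Hbb-bs*, a hemoglobin gene, and the part of this in its values was not tested. The leading genes of sub-cluster 3 began with *Lyz2* and included *Vegfc*. The part of free RNA or mixed cells in the values of sub-cluster 3 was not tested either.

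**Figure D3:**
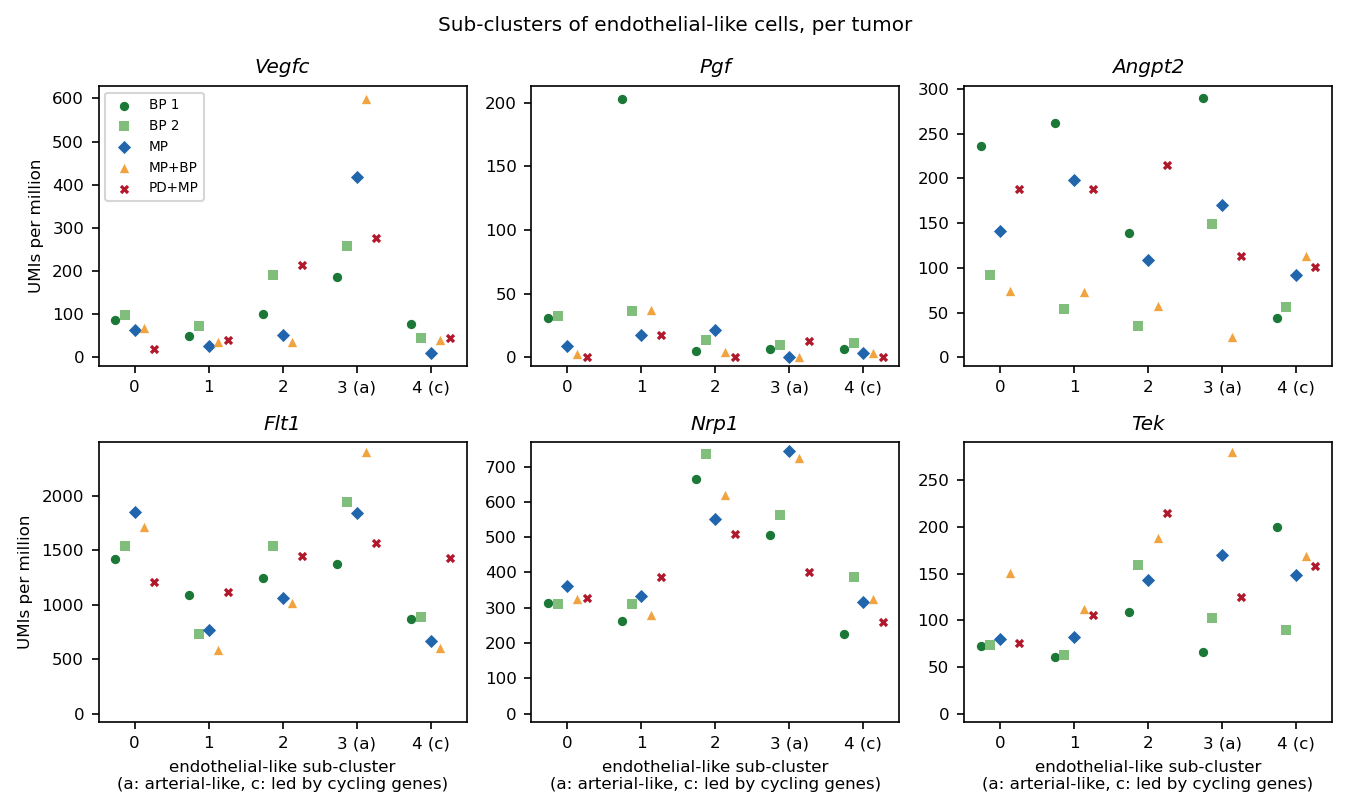
Level of 6 genes (CPM) in the 5 largest endothelial-like sub-clusters, with 1 point per tumor. *Vegfc* is highest in sub-cluster 3 of all 5 tumors, and *Angpt2* has no shared order.

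PD+MP was then set against the other 4 tumors. With 1 tumor against 4, an exact permutation test cannot go below a two-sided p of 0.2, so the edgeR fits took the lone tumor to vary like the others, and on simulated data they missed most changes and, in 2 classes, made more false calls than the threshold allows. Over all kept cells its *Kdr* level was 5.84 CPM (95% Poisson interval 5.32 to 6.39) against 23.9, 18.7, 30.05 and 26.6 in BP 1, BP 2, MP and MP+BP. *Tek* stood at 2.64 CPM against 7.69 to 13.7, *Vegfc* at 1.59 against 4.39 to 7.37, and *Angpt2* at 9.25 against 10.1 to 21.1, each below the range of the other tumors. *Flt1* was 72.7 CPM against 88.3 to 147. *Vegfa*, at 66.4 against 82.1 to 112 CPM, and *Angpt1*, at 12.8 against 17.1 to 58.1 CPM, were below the range too. These 2 genes were lower in endothelial-like than in SyS-like cells. *Pgf*, at 3.37 against 3.29 to 5.53 CPM, was within the range. *Vegfb* was 78.2 against 25.8 to 34.5 CPM and *Nrp1* 162 against 107 to 138, both above the range. PD+MP was set apart because it had few endothelial-like cells, so low levels over all cells of genes high in that class are no separate result. The share of all genes outside the range of the other tumors is not given here. A level over all cells combines the number of cells of a class with the level in each, so the classes were compared singly.

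In endothelial-like cells none of the 10 genes was called in PD+MP by edgeR, and backgrounds were 0.0365% higher and 0.0219% lower. None had an unadjusted p under 0.05 (the smallest was 0.19, for *Pgf*) and DESeq2 called none of them. Over all genes, 1037 had an unadjusted p under 0.05, edgeR called 8 and DESeq2 24. *Kdr* was 594 CPM (533 to 660) against 448 ± 65.3 (SD, n = 4), and *Flt1* 1270 (1180 to 1366) against 1244 ± 178. *Tek* was 116 (89.6 to 147) against 103 ± 31.6, and *Angpt2* 180 (147 to 218) against 138 ± 67.9. PD+MP contributed 80 cells and 579310 UMIs. The standard errors of these log2 differences were 0.25 for *Kdr*, 0.23 for *Flt1*, 0.41 for *Tek* and 0.54 for *Angpt2*, so the fit of 1 tumor against 4 could not resolve differences of that order. *Pgf* had 4 UMIs and *Vegfa* 3 in these cells.

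In SyS-like cells *Vegfb* was higher in PD+MP, at 85.9 CPM (83.8 to 88.1) against 30.4 ± 4.71 (SD, n = 4), a log2 difference of 1.56 ± 0.24 (adjusted p = 0.042). *Tek* was lower, at 0.92 CPM (0.71 to 1.17) against 6.36 ± 1.49 (log2 difference -2.71 ± 0.43, adjusted p = 0.045). These were 1 higher and 1 lower of 10, with backgrounds of 0.916% and 1.53%. Both calls stood near the threshold. Leaving out BP 1, BP 2 or MP+BP ended the call of *Vegfb*, with values of 1.51 to 1.69 over all tumors left out. Leaving out any of BP 1, BP 2, MP and MP+BP ended that of *Tek*, with values of -2.76 to -2.54. *Kdr* stood at 0.37 CPM (0.24 to 0.54) against 3.51 ± 2.66, and *Cdh5* at 0.64 against 2.46 ± 0.49, and the *Kdr* difference was not called (-3.16 ± 1.04, adjusted p = 0.13). *Vegfa* was 69.3 against 110 ± 13.8 CPM, below all 4 other tumors, and was not called either (-0.60 ± 0.23, adjusted p = 0.18). Among SyS-like clusters, 5 drew more UMIs from PD+MP than from any other tumor, and *Vegfb* there was 93.4, 104, 68.5, 48.1 and 30.003 CPM in clusters 6, 16, 17, 12 and 18. The last 2 had medians of 2912 and 2442 UMIs per cell, against 8932 to 15774 in the others.

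In macrophage-like cells *Kdr* was 14.3 CPM in PD+MP (11.5 to 17.6, 89 UMIs) against 1.88, 2.34, 2.34 and 2.80 CPM in the other tumors. The log2 difference was 2.60 ± 0.36 (adjusted p = 0.011), making 1 of 8 tested genes higher and 0 lower, with backgrounds of 1.19% and 0.39%. The *Kdr* to *Cdh5* ratio was 4.45 in PD+MP against 0.22 to 0.47 in the other tumors and 0.36 in endothelial-like cells of PD+MP. Of the 89 UMIs, 78 lay in cluster 19, led by *Spp1* and *Pf4*, where *Kdr* reached 28.2 CPM (22.3 to 35.2). In BP 1, the other tumor with many such cells, it was 5.50 CPM (2.21 to 11.3). The UMIs came from 61 of 925 cells with at most 5 per cell, and 17 of the 61 also had a UMI of an endothelial marker, as did 266 of all 925 cells. The call was lost with doublets kept (1.69, adjusted p = 0.13) and under a naming rule that left cluster 19 out (0.49, adjusted p = 0.85). *Rcan1*, a target of VEGF and calcineurin signaling, was the gene of the other lists that was called, lower by -1.94 ± 0.37 on the log2 scale (adjusted p = 0.043).

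*Vegfa* also differed among macrophage-like clusters. In cluster 19 it was 98.3, 139, 57.3 and 82.7 CPM in BP 1, MP, MP+BP and PD+MP, and in cluster 0, led by *C1qa*, it was 40.0, 24.2, 24.96 and 24.5 CPM in the same tumors. The values rest on 125, 12, 6 and 229 UMIs in cluster 19, and BP 2 had no such cells. Hypoxia-responsive genes summed to 1532 CPM in cluster 19 and 537 CPM in cluster 0. No test was run between clusters. Over all macrophage-like cells *Vegfa* was 50.8 CPM in PD+MP and 50.8 in BP 1, and the difference of PD+MP was not called (adjusted p = 0.50).

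**Figure D4:**
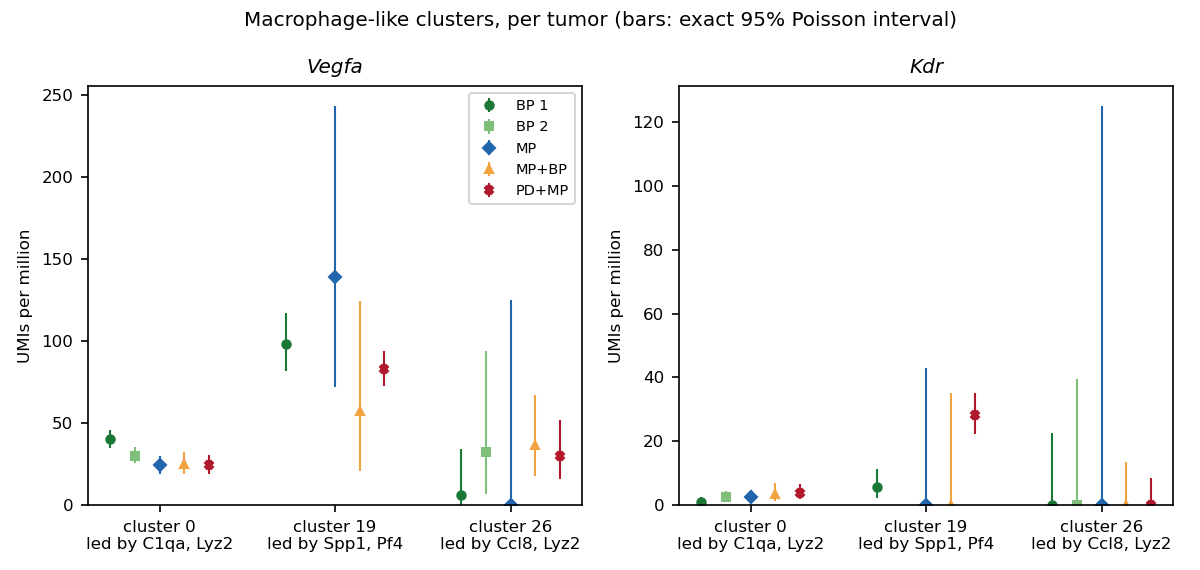
Level of *Vegfa* and *Kdr* (CPM, bars the exact 95% Poisson interval) in the 3 macrophage-like clusters, per tumor. *Vegfa* is higher in cluster 19 than in cluster 0 in the 4 tumors that have both, and *Kdr* in cluster 19 is highest in PD+MP at 28.2.

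The shares of UMIs held by each class in PD+MP were then set beside those of the other tumors. Endothelial-like cells held 72.4% of its *Kdr* UMIs and macrophage-like cells 18.7%, against at most 0.62% of *Kdr* in macrophage-like cells of the other tumors. Fibroblast-like cells, 122 in PD+MP and at most 13 elsewhere, held 35.3% of the *Tek* and 29.5% of the *Vegfc* UMIs of PD+MP. *Vegfc* stood there at 34.6 CPM from 38 UMIs. SyS-like cells held 30.2% of *Tek* in PD+MP and 42.0% to 55.1% in the other tumors. They held 69.3% of its *Angpt2* UMIs, against 22.3%, 55.0%, 28.9% and 51.7% in BP 1, BP 2, MP and MP+BP, with a level of 7.38 CPM against 6.82 ± 1.17 (SD, n = 4) in the other tumors.

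**Figure D5:**
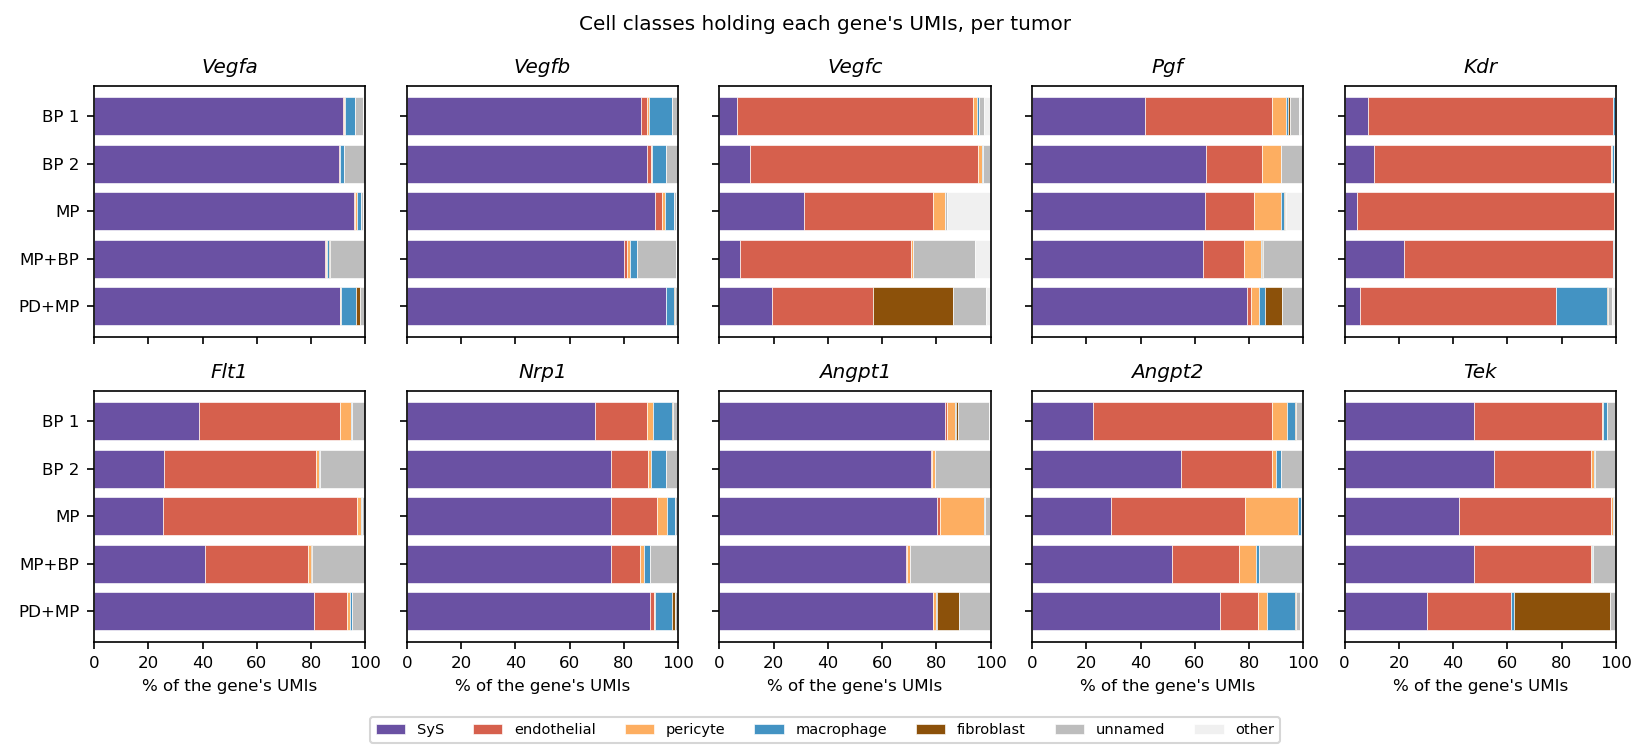
Share of each gene's UMIs held by each cell class (percent, bars adding to 100) in each tumor. SyS-like cells hold most *Vegfa* and *Vegfb* in every tumor, and in PD+MP fibroblast-like cells hold 35.3% of *Tek* and macrophage-like cells 18.7% of *Kdr*.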

How the data were processed

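Single cells of 5 tumors were profiled with 10x 3′ chemistry after enzymatic dissociation and red blood cell lysis. The deposited matrices hold the counts (UMIs) per gene and cell that the authors made with Cell Ranger 7.2.0, per the file headers, on mm10 per the submitters' notes; the annotation release is not given in the sources used here. Groups came from the sample titles.

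Cells with under 750 genes or over 25% mitochondrial counts and predicted doublets were removed. Cells were clustered with scanpy 1.11.5 (3000 features, 30 components, Leiden resolution 1) without the 10 genes, and clusters were named "-like" from marker lists. The naming rule was changed after its first form left many SyS clusters unnamed, and that form is kept as an alternative. UMIs were summed per class and tumor and tested with edgeR 4.0.16 (quasi-likelihood, TMM, filterByExpr, Benjamini-Hochberg over all genes). The tumor was a block in class contrasts, since all classes come from the same tumors, and no block was possible for PD+MP. Alternatives included DESeq2 1.42.0, library totals, count filters, cell filters, doublets kept and each tumor left out. The 10 genes and the lists were chosen with earlier results of these data known. The named list genes are the 6 with the largest called changes in each class contrast. The comparison of tip-like cells was not run, because no sub-cluster was named tip-like.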

Additional observations from a re-analysis of the deposited data

Results flagged for a closer look

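In 4 instances, of which the last rests on a near tie, PD+MP ranked above all other tumors in one cell class and below all of them in another. The share of all genes that rank in this way is not given here, so the 4 instances are a description and do not set these genes apart. Each value below is the difference between the classes in log2((PD+MP level + 1)/(mean level of the other 4 tumors + 1)), with levels in CPM, and none of these differences was tested. *Kdr* differed by 3.92 between macrophage-like and SyS-like cells and by 2.13 between endothelial-like and SyS-like cells. *Pgf* differed by 2.03 between macrophage-like and endothelial-like cells, where PD+MP had 6 and 4 UMIs. *Vegfa* differed by 1.23 between macrophage-like and SyS-like cells, but in macrophage-like cells PD+MP and BP 1 were level at 50.8 CPM each, with intervals of 45.3 to 56.7 and 45.4 to 56.6.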

How the results depend on the processing

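Of the called differences of the 10 genes, alternatives kept direction and call in 643 instances, lost the call in 26 and turned it in 1; of those not called, 438 stayed so, 13 became called and 24 turned. The alternative naming rule and the removal of mixed sub-clusters were chosen after seeing the data. With a minimum count in every sum, the class contrasts tested only *Flt1*, *Nrp1* and *Angpt2*. Calls of the other genes were not tested there, so they were neither kept nor lost. Requiring at least 10 counts in every sum left 3 of the genes called in each contrast of endothelial-like cells and in SyS-like against pericyte-like cells, 1 in SyS-like against macrophage-like cells, 1 for PD+MP in SyS-like cells and 0 in macrophage-like cells. In the latter *Kdr* was no longer tested, whereas *Tek* in SyS-like cells was still tested (-2.77, adjusted p = 0.051). For PD+MP in SyS-like cells library totals left 1 and the first naming rule 0, and in macrophage-like cells the first rule and kept doublets left 0. DESeq2 called 3 in SyS-like cells, with *Kdr* added (adjusted p = 0.0045), but over all genes it called 3727 there and edgeR 526. With each tumor left out, called genes ranged from 10 to 10 for endothelial-like against SyS-like, 7 to 9 against pericyte-like and 9 to 10 against macrophage-like cells, 7 to 8 for SyS-like against pericyte-like and 4 to 7 against macrophage-like cells, and, for PD+MP, 0 to 1 in SyS-like, 0 to 0 in endothelial-like and 1 to 1 in macrophage-like cells.

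The called value that turned was *Nrp1* in SyS-like against macrophage-like cells (0.14 with library totals). That scaling moved the median of all genes in this contrast from 0.18 to 0.82, and also turned *Vegfb* (0.43) and *Angpt2* (0.17, or 0.11 with the first naming rule), and *Vegfc* was -0.82 with doublets kept. *Tek* in SyS-like against pericyte-like cells was 0.27 with library totals, 0.14 with no filter, 0.17 with at least 1500 genes and 0.0035 with the first rule (-0.23 to 0.32 with a tumor left out). *Pgf* in endothelial-like against pericyte-like cells was 0.041 with doublets kept (-0.68 to 0.043), and *Angpt1* against macrophage-like cells was -0.30 without mixed sub-clusters. For PD+MP in endothelial-like cells *Flt1* was 0.029 with library totals (-0.11 to 0.038 with a tumor left out), *Vegfc* -0.38 to 0.18 and *Tek* -0.018 to 0.32. In macrophage-like cells the first rule gave *Vegfa* -0.37 and *Angpt2* -0.26, and *Flt1* was 0.096 with at most 10% mitochondrial counts (-0.37 to 0.050), and *Vegfb* -0.0019 to 0.10. The cause was not tested. No paired analysis was possible because PD+MP is 1 tumor; class contrasts without the tumor as a replicate block lost *Angpt2* in endothelial-like against pericyte-like cells (adjusted p = 0.05003) and called *Kdr* lower in SyS-like than macrophage-like cells (adjusted p = 0.048).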
